A study of Dipsacus asperoides with 9 samples.

Results

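Jasmonic acid (JA) is made from α-linolenic acid by a chain of enzymes, and 3 of them form the middle of that chain. Allene oxide synthase (AOS), a plastid cytochrome P450 of the CYP74 group, turns the hydroperoxide left by a 13-lipoxygenase into an unstable allene oxide. Allene oxide cyclase (AOC) closes that product into 12-oxophytodienoic acid (OPDA), and 12-oxophytodienoate reductase 3 (OPR3) reduces OPDA in the peroxisome, where β-oxidation then yields JA. In roots of many plants JA and its conjugates restrain growth, answer wounding and induce secondary metabolites, among them triterpenoid saponins.

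The 6 unigenes described here carry NR matches to these enzymes: 2 to AOS, 2 to AOC and 2 to OPR. They were taken from the 65535 unigenes with deposited values in a transcriptome of *Dipsacus asperoides*, a perennial herb whose roots are used as a medicine. They were chosen by name with their FPKM known. The study reports more expressed unigenes than this, so family and step counts, sums and ranks given here cover the deposited values only. Every unigene named here has an identifier that begins DN1, DN2 or DN3 after TRINITY. Unigenes with other first digits may be missing from the deposited values whatever their level, and this was not tested. A unigene is an assembled transcript cluster, and FPKM scales its fragments by transcript length and by the mapped reads of a library. Among these 65535, 21 unigenes carried AOS, AOC or OPR names (3, 4 and 14 unigenes). Of these 21, the 6 were those with the highest FPKM averaged over all libraries. The last of them, an AOS named AOS 3, averaged 16.3 FPKM, and the next below, an OPR11-named unigene outside the 6, averaged 12.7 FPKM. Because values chose these 6 unigenes, their levels and differences are given as a description with no test, while tests are given for other unigenes of the pathway.

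The roots came from plants labelled WT at 3 stages, with 3 biological replicates each: seedlings with 1 leaf (L1), seedlings with 2 leaves (L2) and plants grown for 7 months (M7). The study asked how JA synthesis stands to asperosaponin VI as the root develops. Stage, age and time of harvest go together in this design and cannot be told apart. In bulk roots, fewer cells of a type and less RNA per cell cannot be told apart either.

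The study designed qRT-PCR primers for 4 transcripts of these families, and their sequences are shown as short stretches of AOS, AOC and OPR transcripts. Each is written 5′ to 3′ in lower case, with nothing capitalised.
DaAOS1 forward: tggagttcaagtcccgcagag
DaAOS1 reverse: gatttcctcaacgaagcccaa
DaAOS2 forward: gtaacaatggcggggatgga
DaAOS2 reverse: actcctcgggtcggtcaaata
DaAOC1 forward: gttgctgaatggcacaaggtc
DaAOC1 reverse: cgctgctgatcgggacaac
DaOPR3 forward: gccgtgggctccgtgtatc
DaOPR3 reverse: cagtagggaaagtgcattatcgc

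These primers are 19 to 23 nt long, and their GC content ran between 47.6% for the DaAOS1 reverse primer and 68.4% for the DaOPR3 forward primer. Unigene sequences were not used here, so no primer was assigned to a unigene, and the DaAOS1 and DaAOS2 names are not placed on either AOS unigene below.

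Libraries differed in ways that touch these values. The number of unigenes that reached 1 FPKM lay between 26048 and 28468 in L1 libraries, between 32849 and 34173 in L2 libraries and between 13430 and 18794 in M7 libraries. The 100 most expressed unigenes took 34.2% of the summed FPKM in replicate 3 of L1 and 48.1% in replicate 1 of M7, the highest shares of their stages. Among unigenes with a stage mean over 30 FPKM, the median coefficient of variation was 22.2% in L1, 4.67% in L2 and 30.8% in M7. Most root markers, though not all, were lower in M7. The 6 unigenes named Casparian strip membrane protein, which mark the endodermis, summed to 0.68 to 1.19 FPKM in M7, against 22.2 to 38.7 in L1 and 20.2 to 25.0 in L2. SHORT-ROOT, a regulator of the root stele and endodermis, was at 0 to 0.72 FPKM in M7, against 10.8 to 16.7 in L1 and 6.20 to 7.49 in L2. High-affinity nitrate transporters overlapped across stages, at 71.1 to 112 FPKM in M7, against 109 to 121 in L1 and 87.3 to 92.3 in L2. All 44 unigenes of the root list summed to 169 to 291 FPKM in M7, against 1272 to 1638 in L1 and 767 to 780 in L2, and SCARECROW-named unigenes made up 1025 to 1322 FPKM of the L1 sums. The 39 unigenes of a green tissue list summed to 1328 to 3225 FPKM in M7, against 191 to 233 in L1 and 63.1 to 73.8 in L2. Chlorophyll a-b binding proteins made up nearly all of that sum in M7, while the Rubisco small subunit was at 3.93 to 6.81 FPKM in M7, against 15.5 to 24.4 in L1 and 6.30 to 9.57 in L2. The part of these markers in the values of the JA synthesis unigenes was not tested.

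**Figure D1:**
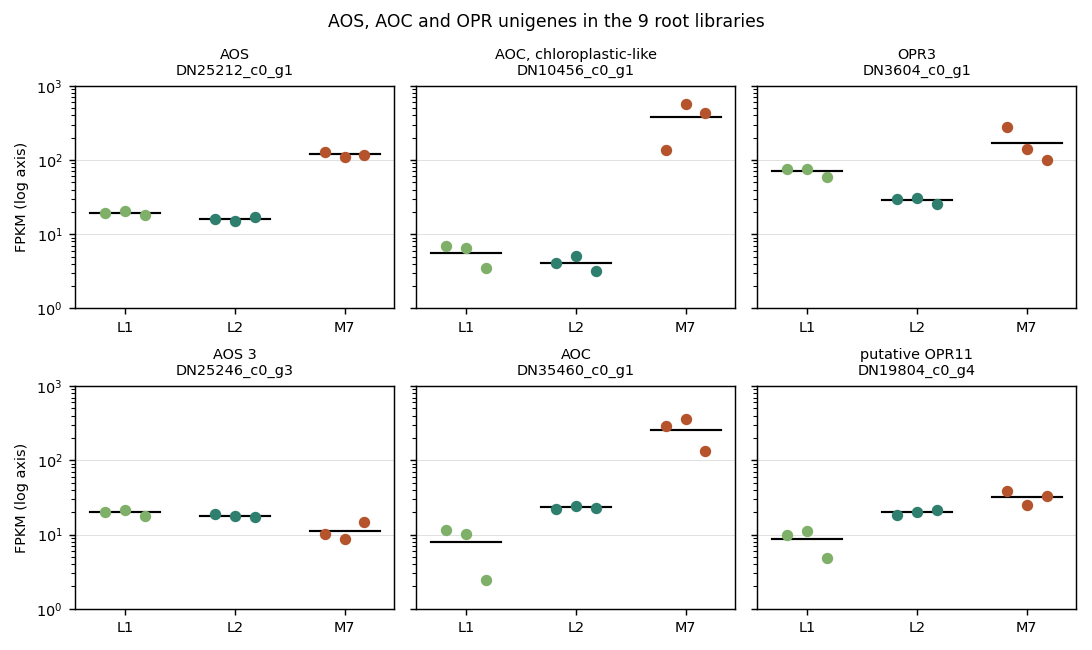
FPKM (log axis) of the 6 AOS, AOC and OPR unigenes in each root library, by stage. Points are libraries and horizontal lines are stage means. In 5 panels all M7 points lie above all L1 and L2 points, and in the AOS 3 panel they lie below them.

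The AOS step was represented by 2 unigenes that differed in direction. TRINITY_DN25212_c0_g1, matched to AOS of *Jatropha curcas*, had 19.1, 20.6 and 17.9 FPKM in L1, 16.2, 15.0 and 17.1 in L2, and 128, 110 and 118 in M7. The M7 libraries stood far above both seedling stages and close to each other, and the L1 and L2 ranges lay side by side without overlap. On the log2(FPKM + 1) scale this AOS was higher in M7 than in L1 by 2.57 (standard error 0.17) and higher in M7 than in L2 by 2.81 (standard error 0.17). In L2 against L1 the difference was -0.24 (standard error 0.17). Of the 6 unigenes it was the one whose replicates agreed most closely in M7, at 119 ± 8.96 FPKM (SD, n = 3).

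TRINITY_DN25246_c0_g3, matched to AOS 3 of *Vitis vinifera*, was the only one of the 6 that was lowest in M7. It had 20.4, 21.6 and 17.5 FPKM in L1, 18.8, 17.9 and 17.0 in L2, and 10.2, 8.74 and 14.6 in M7. The L1 and L2 libraries overlapped, and every M7 library lay below every seedling library. In tomato, an AOS 3 works on 9-hydroperoxides in roots and so feeds another branch than JA, but the name here rests on a best match only. The difference was -0.80 in M7 against L1 (standard error 0.22) and -0.66 in M7 against L2, where it turned to 0.16 with median ratio rescaling and to 0.22 with quantile normalization. Under those scalings it was -0.20 and -0.12 in M7 against L1. Its order between M7 and L2 thus depended on the scaling. Between M7 and L1 the sign held, but both values were smaller than the standard error of 0.22 on the deposited scale.

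Both AOC unigenes had the largest M7 differences of the 6. TRINITY_DN10456_c0_g1, matched to a chloroplastic AOC of *Nelumbo nucifera*, had 6.97, 6.44 and 3.53 FPKM in L1, 4.05, 5.05 and 3.17 in L2, and 137, 563 and 429 in M7. The seedling stages overlapped at a few FPKM, and even the lowest M7 library lay far above them. Its log2 difference was 5.64 in M7 against L1, 6.001 in M7 against L2 (standard error 0.51 each) and -0.36 in L2 against L1 (standard error 0.51). Replicate 1 of M7 was the low one for this AOC, and without it the difference from L1 was 6.25.

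TRINITY_DN35460_c0_g1, matched to AOC of *Actinidia chinensis*, was already higher in L2. It had 11.4, 10.1 and 2.46 FPKM in L1, 22.3, 24.2 and 22.9 in L2, and 285, 356 and 134 in M7. The 3 stages did not overlap and were ordered L1, L2, M7. The log2 difference was 4.94 in M7 against L1 (standard error 0.53), 3.31 in M7 against L2 and 1.63 in L2 against L1. Replicate 3 of L1 was far below the other L1 libraries, and without it the difference in L2 against L1 was 1.04.

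The balance between both AOC unigenes differed among libraries. The *Nelumbo*-matched AOC was below the *Actinidia*-matched AOC in replicate 1 of M7 (137 and 285 FPKM), above it in replicate 2 (563 and 356 FPKM) and above it in replicate 3 (429 and 134 FPKM). In L2 the *Actinidia*-matched AOC was the higher one in all 3 libraries. In L1 it was higher in replicates 1 and 2 and lower in replicate 3 (2.46 FPKM, against 3.53 for the *Nelumbo*-matched AOC), so libraries of M7 and of L1 were not alike in which AOC unigene led.

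OPR3 was the one with the highest seedling level. TRINITY_DN3604_c0_g1, matched to OPR3 of *Vitis vinifera*, had 76.0, 76.2 and 59.7 FPKM in L1, 29.9, 30.8 and 25.4 in L2, and 274, 139 and 101 in M7. The stages did not overlap, and their order was L2, L1, M7, with L2 at the bottom. The log2 difference was 1.15 in M7 against L1 (standard error 0.35), 2.41 in M7 against L2 and -1.27 in L2 against L1. Replicate 1 of M7 was the highest, and without it the difference in M7 against L1 was 0.75. With that library and replicate 3 of L1 both left out, it was 0.63, and with median ratio rescaling it was 1.78.

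TRINITY_DN19804_c0_g4, matched to putative OPR11 of *Citrus clementina*, moved less. Its values were 9.89, 10.98 and 4.87 FPKM in L1, 18.4, 20.1 and 21.4 in L2, and 38.8, 24.8 and 32.8 in M7. The stages did not overlap and followed the order L1, L2, M7, as in the *Actinidia*-matched AOC. In Arabidopsis OPDA reduction rests mainly on OPR3, and an OPR11 name does not by itself place a protein at that step. The log2 difference was 1.83 in M7 against L1 (standard error 0.31), 0.64 in M7 against L2 and 1.19 in L2 against L1. The value against L2 was 1.49 with median ratio rescaling and 1.25 with quantile normalization.

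Median ratio rescaling raised the M7 differences of all 6. It gave 3.20 against L1 and 3.66 against L2 for the *Jatropha*-matched AOS, 6.79 against L2 for the *Nelumbo*-matched AOC, 4.17 against L2 for the *Actinidia*-matched AOC and 3.28 against L2 for OPR3.

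In 5 of the 6 unigenes every M7 library was above all 6 seedling libraries, which held for 7.8% of the 34925 unigenes tested. The 6 were picked with these values known, so nothing is read from that count. Between L1 and L2 they had no common direction. The *Actinidia*-matched AOC and OPR11 were higher in L2 by more than 1 on the log2 scale, OPR3 was lower in L2 by more than 1, and the other AOC and both AOS unigenes differed by -0.36, -0.24 and -0.14, the *Nelumbo*-matched AOC first and AOS 3 last. In L1 the order of levels began with OPR3 at 70.6 ± 9.49 FPKM, followed by AOS 3 at 19.8 ± 2.08 and the *Jatropha*-matched AOS at 19.2 ± 1.32 (SD, n = 3 each), of which the AOS pair overlapped. OPR11 at 8.58 ± 3.26 and both AOC unigenes, at 7.97 ± 4.81 and 5.65 ± 1.85 (SD, n = 3 each), came below them and overlapped each other. In L2 the order was OPR3 at 28.7 ± 2.87 FPKM, the *Actinidia*-matched AOC at 23.1 ± 0.96, OPR11 at 19.9 ± 1.505, AOS 3 at 17.9 ± 0.92, the *Jatropha*-matched AOS at 16.1 ± 1.04 and the *Nelumbo*-matched AOC at 4.09 ± 0.94 (SD, n = 3 each). There AOS 3 overlapped with OPR11 above it and with the other AOS below it, and the rest did not overlap with their neighbours. In M7 the order began with the *Nelumbo*-matched AOC at 376 ± 218 FPKM, the *Actinidia*-matched AOC at 258 ± 113 and OPR3 at 171 ± 90.7, whose ranges overlapped. The *Jatropha*-matched AOS at 119 ± 8.96 lay within the OPR3 range, while OPR11 at 32.2 ± 7.03 and AOS 3 at 11.1 ± 3.03 lay below all of these without overlap.

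**Figure D2:**
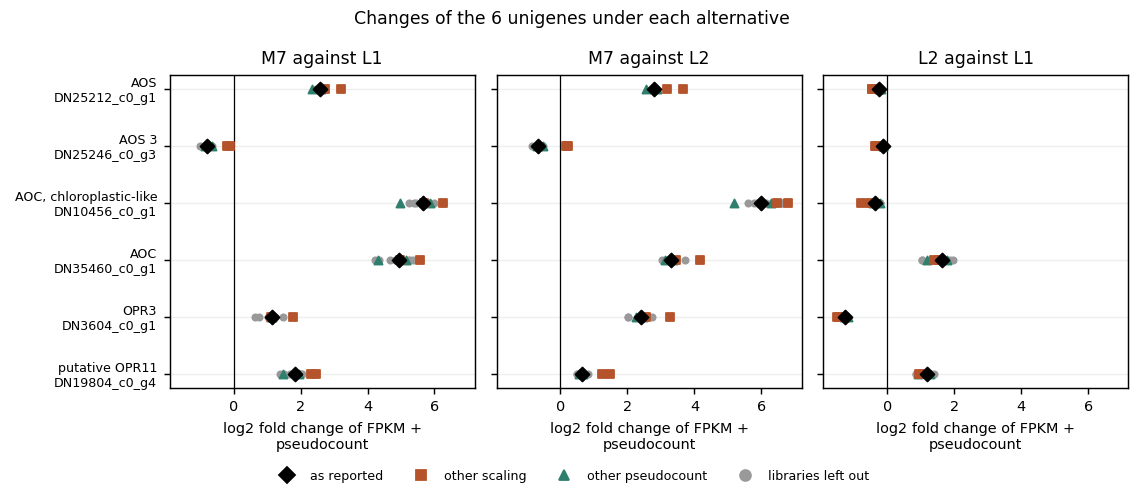
Log2 fold change (x axis) of the 6 unigenes (rows) in each comparison under the settings tried: diamonds as reported, squares other scalings, triangles other pseudocounts, grey points libraries left out. The M7 values of both AOC unigenes stay above 3 in every setting, and AOS 3 crosses 0 in M7 against L2 under both other scalings.

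Summed over the listed unigenes of a family, the gain in M7 was greatest for AOC. Its 4 unigenes summed to 422, 919 and 563 FPKM in M7, against 30.2, 31.1 and 18.8 in L1 and 30.4, 35.4 and 31.99 in L2. The 3 AOS unigenes summed to 130 ± 9.90 FPKM in M7, against 39.3 ± 3.55 in L1 and 35.6 ± 0.34 in L2 (SD, n = 3 each). The 14 OPR unigenes summed to 232 ± 82.8 FPKM in M7, against 138 ± 12.1 in L1 and 81.6 ± 5.71 in L2. Only in the AOS and AOC families did the 2 unigenes described above take 100% of the family's listed FPKM in M7. In seedlings they took a smaller part of the AOC sum, 48.6% ± 15.0 in L1 and 83.5% ± 2.78 in L2. Of the OPR sum they took 85.5% ± 9.17 in M7, against 57.0% ± 4.45 in L1 and 59.7% ± 2.24 in L2.

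**Figure D3:**
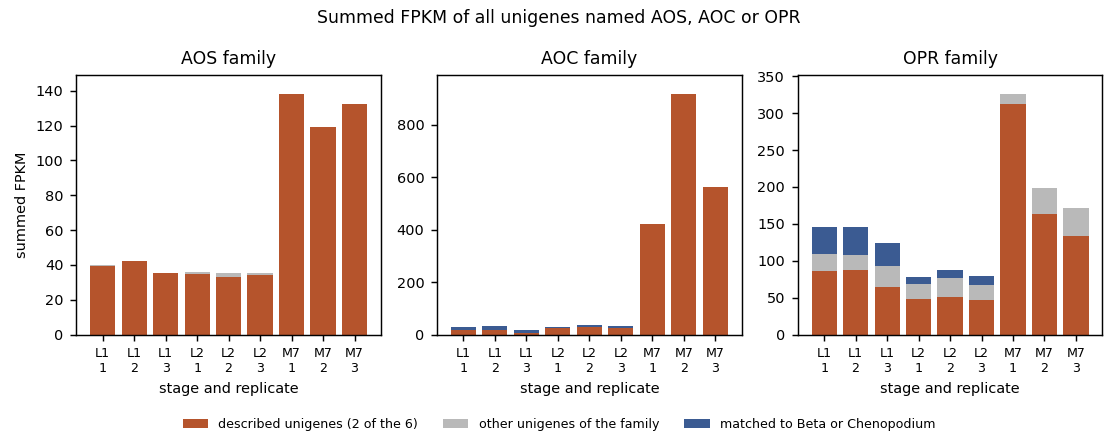
Summed FPKM (y axis) of the listed unigenes named AOS, AOC or OPR in each library (x axis), split into the 2 described unigenes of the family, other unigenes, and those matched to *Beta* or *Chenopodium*. The blue parts are seen in L1 and L2 and are absent in M7, where AOC sums reach 422 to 919 FPKM.

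All of the AOC sum that the described unigenes left in seedlings, and part of the OPR sum (35.2 ± 3.28 FPKM in L1 and 11.1 ± 1.47 in L2, SD, n = 3 each), lay in unigenes matched to *Beta vulgaris* or *Chenopodium quinoa*, both of the order Caryophyllales and far from *Dipsacus*. The *Beta*-matched AOC TRINITY_DN29125_c0_g1 had 8.38, 10.5 and 10.2 FPKM in L1, then 2.69, 5.31 and 4.53 in L2, and all 3 M7 libraries listed it at 0. A second unigene of that cluster, TRINITY_DN29125_c0_g2, had 2.57 to 4.10 FPKM in L1 and 0.89 to 1.44 in L2, with 0 again listed throughout M7. Together they made up 51.4% ± 15.0 of the L1 AOC sum (SD, n = 3), and the first of them was above the *Nelumbo*-matched AOC in every L1 library. Both fell in L2 against L1 and in M7 against each seedling stage, except that the fall of the second in M7 against L2 was lost with quantile normalization (adjusted p = 0.775, with a range of 2.51e-05 to 0.775 over its alternatives, limma). The highest of the OPR unigenes of this kind, the *Chenopodium*-matched TRINITY_DN30853_c0_g2, had 25.8, 27.9 and 22.3 FPKM in L1, 7.17, 8.47 and 7.93 in L2 and 0 in each M7 library. It was lower in L2 than in L1 by a log2 difference of -1.57 (adjusted p = 0.000134, limma), and its fall in M7 passed the test against both seedling stages.

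The pattern was not particular to these families. Across the table, 96.2% of 2191 tested unigenes matched to *Beta*, *Spinacia* or *Chenopodium* were under 0.1 FPKM in every M7 library. This held for 20.7% of 18247 matched to other species apart from *Quercus suber*. In the AOS, AOC and OPR families it was 5 of 5 such unigenes. The origin of these unigenes was not tested, and the 6 described unigenes have no match to these genera.

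Among the other 15 unigenes of the families, 11 passed the filter of 1 FPKM in at least 3 libraries and were tested, and 4 OPR unigenes did not pass. In M7 against L1, 1 of the 11 rose and 5 fell, where 9.37% of all tested unigenes rose and 35.1% fell. The 5 that fell were those matched to *Beta* or *Chenopodium*. In M7 against L2, 1 rose and 7 fell, these 5 among them, where 7.71% of all rose and 52.6% fell. In L2 against L1, 2 rose and 4 fell, where 26.1% of all rose and 14.8% fell.

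The 1 that rose in M7 was TRINITY_DN18651_c1_g2, an OPR11-named unigene with 6.02, 4.34 and 11.4 FPKM in M7, against 0.80 to 1.61 in L1 and 0.95 to 1.65 in L2. Its log2 difference was 1.84 in M7 against L1 (adjusted p = 0.00207) and 1.73 in M7 against L2 (adjusted p = 0.00211, limma), and it passed the test in 18 of 18 alternatives for each. The only listed AOS unigene outside the 6, the AOS 3-named TRINITY_DN17897_c0_g1, had 1.02 to 2.42 FPKM in L2, against 0 to 0.47 in L1, and was listed at 0 in M7. It rose in L2 against L1 (log2 difference 1.02, adjusted p = 0.00495, limma), but not with quantile normalization (adjusted p = 0.274, with a range of 0.00407 to 0.274 over its alternatives).

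The OPR11 unigenes of one assembly cluster did not move together. TRINITY_DN19804_c0_g1, which had the highest level after the 6, had 12.2, 12.1 and 18.7 FPKM in L1, 8.33 to 10.2 in L2 and 4.84, 21.9 and 16.9 in M7, and passed in no comparison. It passed in 4 of 19 alternatives in M7 against L2 and in 1 of 19 in M7 against L1. TRINITY_DN19804_c0_g3 lay between 0.43 and 0.87 FPKM in L1, between 1.44 and 2.17 in L2 and between 0.52 and 0.61 in M7. It rose in L2 against L1 (log2 difference 0.79, adjusted p = 0.00561, limma), though not with quantile normalization. It fell in M7 against L2 by 0.79 on the log2 scale, a call lost with median ratio rescaling (difference -0.34, adjusted p = 0.191, with a range of 0.00334 to 0.191 over its alternatives, limma). With quantile normalization the value turned to 0.87 and passed as higher in M7. TRINITY_DN19804_c1_g2 lay between 1.39 and 2.29 FPKM in L1, between 1.63 and 4.83 in L2 and between 2.44 and 7.54 in M7 and passed in no comparison. It passed in 4 of 18 alternatives in M7 against L1 and in 2 of 18 in M7 against L2. Unigenes of a cluster share sequence, so the split of reads among them is uncertain, which also holds for the OPR11 unigene of that cluster described above.

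Of the remaining OPR unigenes, TRINITY_DN28274_c0_g1, named OPR7, lay between 0.46 and 5.77 FPKM in L1, between 2.74 and 5.18 in L2 and between 0 and 2.71 in M7, and passed in no comparison. The *Chenopodium*-matched TRINITY_DN20398_c0_g1 had 2.14 to 5.58 FPKM in L1 and 1.34 to 2.46 in L2, and the OPR3-like TRINITY_DN13648_c1_g1, also *Chenopodium*-matched, had 3.58 to 6.13 in L1 and 0.90 to 1.71 in L2. Both were listed at 0 in M7 and fell there against each seedling stage, although against L2 neither passed with quantile normalization.

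The other steps of the pathway were followed with a list of 76 tested unigenes, which leaves out the 6 and includes the 11 above. In M7 against L1, 8 of the 76 rose (10.5%) and 34 fell (44.7%), with a median log2 difference of -1.06 against -0.48 over all tested unigenes. In M7 against L2, 6 rose (7.89%) and 45 fell (59.2%), with a median of -1.09 against -1.07 over all. In L2 against L1, 12 rose (15.8%) and 22 fell (28.9%), with a median of -0.11 against 0.32 over all. The words of the list also caught 7 unigenes that were set aside by name, 1 named phospholipase ABHD3 and the rest named for other proteins. Of the 8 rises in M7 against L1, 1 was such a protein, of the aminoacyl tRNA synthase complex. Without these names, 7 rose and 32 fell in M7 against L1, and 9 rose and 21 fell in L2 against L1. Among the 45 of the 76 not matched to *Beta*, *Spinacia*, *Chenopodium* or *Quercus suber*, 8 rose and 13 fell in M7 against L1. Over all tested unigenes, 9.37% rose and 35.1% fell there. Of the 76, 33 were listed at 0 in all M7 libraries, which enter these medians as 0 FPKM and are no bound.

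Scaling mattered for these splits. With quantile normalization, 20 unigenes of the list rose and 27 fell in M7 against L1, and 21 rose and 15 fell in M7 against L2. Over all tested unigenes, quantile normalization gave 7694 higher and 8690 lower calls in M7 against L1, where the deposited scale gave 3271 and 12268. In M7 against L2 it gave 7582 and 8771, where the deposited scale gave 2691 and 18369. It shifted the median of all unigenes to 0.17 in M7 against L1 and to 0.05 in M7 against L2.

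**Figure D4:**
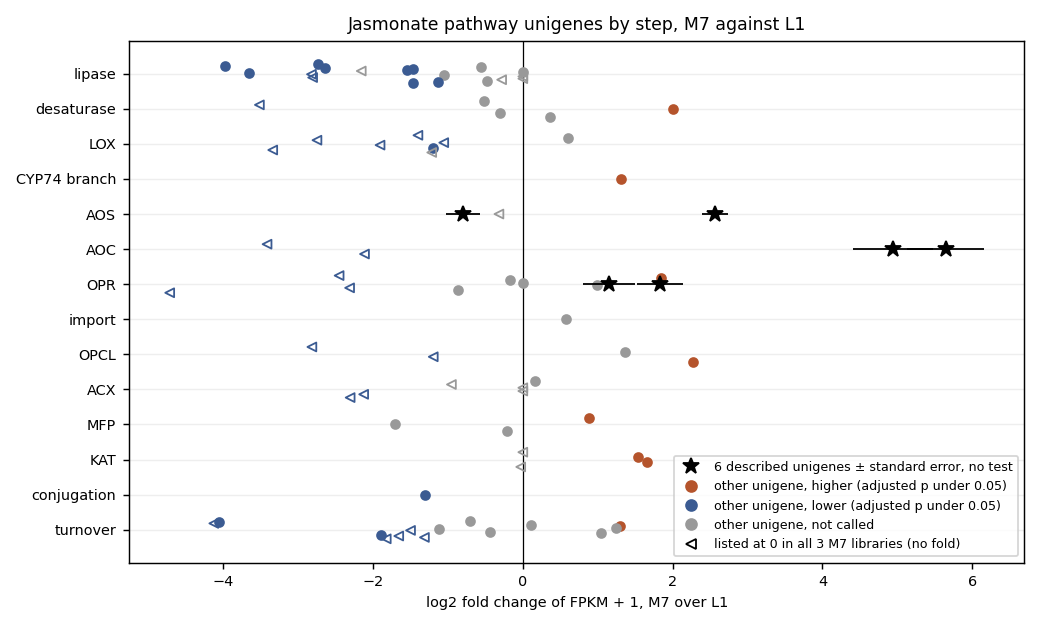
Log2 fold change of FPKM + 1 (x axis) in M7 over L1 for the 76 other tested unigenes caught by the pathway words, by step (y axis). Of these, 7 were set aside by name, 1 named phospholipase ABHD3 and the rest named for other proteins. The 6 described unigenes are stars with standard errors. The AOC stars lie farthest to the right, at 4.94 and 5.64, and the open triangles, listed at 0 in M7, lie at or left of 0.

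Upstream of AOS, few unigenes were higher in M7. Of 18 unigenes caught by the words for the lipase step, which releases α-linolenic acid from membrane lipids, 10 fell and 0 rose in M7 against L1, where 35.1% of all tested unigenes fell and 9.37% rose. The words also caught 5 unigenes that were set aside by name. These were oligosaccharyltransferase subunits DAD1, a phospholipase A-2-activating protein and a unigene named phospholipase ABHD3. Without them 8 of 13 fell and 0 rose. One of the 8, the chloroplastic phospholipase A1-Ibeta2-like TRINITY_DN16615_c0_g1, had 1.80, 6.57 and 2.15 FPKM in M7, against 55.0, 45.9 and 49.3 in L1 and 28.3 to 31.1 in L2. It fell by 3.65 on the log2 scale against L1 (standard error 0.36, adjusted p = 8.03e-05, limma) and passed in 19 of 19 alternatives. The highest by mean level, TRINITY_DN13213_c0_g1, is that activating protein and no lipase, and it also fell in M7 (1.90, 12.8 and 13.3 FPKM, against 44.9 to 65.5 in L1). The study reports DaPLA phospholipase genes as up-regulated while roots developed, and DaPLA2A as higher in M7 than in L1 by qRT-PCR. No unigene was matched to these names here, and theirs may lie outside the deposited values.

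Lipoxygenases, which add oxygen to the fatty acid, had 6 unigenes lower and 0 higher of 8 in M7 against L1. Of the 6, 5 were matched to the Caryophyllales genera. The other was the probable 9S-lipoxygenase 5 TRINITY_DN1509_c0_g1, with a log2 difference of -1.20 (adjusted p = 0.0088, limma). It is named as a 9-lipoxygenase, while JA starts from the product of a 13-lipoxygenase. Over all tested unigenes, 35.1% fell and 9.37% rose in that comparison. The most expressed, the chloroplastic 13-lipoxygenase 2-1 TRINITY_DN132_c0_g1, had 153, 65.6 and 229 FPKM in M7, against 70.3, 75.0 and 122 in L1 and 118 to 124 in L2. The stages overlapped, and it passed in no comparison (adjusted p = 0.313 in M7 against L1, limma). The most expressed omega-3 desaturase, TRINITY_DN26851_c0_g1, which would supply α-linolenic acid, had 21.3 to 62.2 FPKM in M7, against 43.2 to 57.7 in L1 and 52.1 to 53.7 in L2, and passed in no comparison. Of 5 such desaturases, 1 rose and 1 fell in M7 against L1. The rise was of TRINITY_DN26851_c0_g3, singled out after its values were seen, with 2.55 to 8.64 FPKM in M7, against 0.09 to 0.68 in L1. Its log2 difference was 2.00 against L1 (adjusted p = 0.00479, limma), in 18 of 18 alternatives. Against L2 it was 1.24 (adjusted p = 0.0327, limma), in 11 of 18.

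CYP74B enzymes are hydroperoxide lyases and compete with AOS for the same substrate. The CYP74B24-named TRINITY_DN19945_c0_g3 had 143, 94.1 and 95.4 FPKM in M7, against 42.7, 38.8 and 48.4 in L1 and 56.1 to 58.6 in L2. It rose in M7 against L1 by a log2 difference of 1.32 (standard error 0.21, adjusted p = 0.00122) and against L2 by 0.91 (adjusted p = 0.00637, limma), and passed in 19 of 19 alternatives for each. The *Jatropha*-matched AOS was below it in every seedling library and, in M7, was below it in replicate 1 and above it in replicates 2 and 3.

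After OPR, the chain is shortened in the peroxisome. The 3-ketoacyl-CoA thiolase 2 unigene TRINITY_DN16576_c0_g2, the last enzyme of β-oxidation, had 92.2, 73.7 and 90.4 FPKM in M7, against 29.8, 27.8 and 28.2 in L1 and 29.3 to 32.03 in L2. It rose by 1.54 against L1 (standard error 0.17, adjusted p = 0.000156) and by 1.44 against L2 (adjusted p = 0.000148, limma), in 19 of 19 alternatives for each. Like the *Jatropha*-matched AOS, it had tight replicates in M7 and close L1 and L2 levels.

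The most expressed 4-coumarate--CoA ligase-like 5 unigene, TRINITY_DN1713_c0_g4, carries the name of the Arabidopsis OPC-8:0 CoA ligase, which activates the OPR3 product. It had 68.3, 11.6 and 21.8 FPKM in M7, against 7.94 to 11.3 in L1 and 5.79 to 7.32 in L2. It rose in M7 against L2 (log2 difference 1.84, adjusted p = 0.0177, limma), but not without replicate 2 of L2 (adjusted p = 0.0596), without replicate 3 of L2 (adjusted p = 0.0518) or in a fit of M7 and L2 alone (adjusted p = 0.0580), with a range of 0.00277 to 0.0596 over its alternatives. Against L1 its adjusted p was 0.0752. A unigene of the same name at a lower level, TRINITY_DN1766_c2_g4, singled out after its values were seen, had 12.4, 9.38 and 5.99 FPKM in M7, against 0.48 to 1.53 in L1 and 0.38 to 0.63 in L2. It rose by 2.28 against L1 (adjusted p = 0.000409) and by 2.69 against L2 (adjusted p = 0.000103, limma), in 19 of 19 alternatives for each.

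A second thiolase, 3-ketoacyl-CoA thiolase 1 (TRINITY_DN16576_c1_g1), also singled out after its values were seen, had 62.7, 72.6 and 60.2 FPKM in M7, against 31.1, 29.3 and 8.27 in L1 and 41.2 to 42.3 in L2. It rose against L1 by a log2 difference of 1.66 (adjusted p = 0.0149, limma), though not in a fit of M7 and L1 alone (adjusted p = 0.0672, with a range of 0.000382 to 0.0672 over its alternatives), and did not pass against L2 (adjusted p = 0.252).

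Acyl-CoA oxidase 3 (TRINITY_DN24963_c0_g1) had 7.82 to 22.0 FPKM in M7, against 9.29 to 17.7 in L1 and 23.6 to 25.7 in L2, and passed in no comparison. It passed in 5 of 19 alternatives in L2 against L1 and in 2 of 19 in M7 against L1. The multifunctional protein MFP-a (TRINITY_DN1994_c0_g1) had 44.7 to 59.4 FPKM in M7, against 50.6 to 69.1 in L1 and 71.8 to 78.4 in L2. It passed as lower in M7 against L2 (log2 difference -0.53, adjusted p = 0.0441, limma), a call lost without any of the 3 L2 libraries, replicate 2 of L1 or replicate 2 of M7 (adjusted p = 0.0701 to 0.113) and with the replicate block (adjusted p = 0.0846) or quantile normalization (adjusted p = 0.205). It turned to 0.34 with median ratio rescaling. TRINITY_DN17608_c0_g1, caught by the words for that step, is an aminoacyl tRNA synthase complex protein and no β-oxidation enzyme, with 1.55 to 26.6 FPKM in M7, against 17.1 to 47.8 in L1 and 65.1 to 66.0 in L2. The peroxisomal importer ABC transporter D family member 1 (TRINITY_DN22856_c0_g1, *Beta*-matched) had 8.13 to 9.33 FPKM in L2, against 0 to 1.32 in L1, and 0 to 1.80 in M7.

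Downstream of JA, 1 of 14 unigenes caught by the turnover words rose and 7 fell in M7 against L1. Over all tested unigenes, 9.37% rose and 35.1% fell. The words also caught IAA-amino acid hydrolases and P450 94A names, which do not by themselves place a protein in JA turnover. IAA-amino acid hydrolases were among the 7 falls. Of the 7, 6 were matched to the Caryophyllales genera or *Quercus suber*, and the rise, of the P450 94A2-like TRINITY_DN2101_c0_g2, singled out after its values were seen (adjusted p = 0.0498, limma), passed in only 8 of 18 alternatives. The conjugating JAR4-like synthetase TRINITY_DN3890_c0_g1, of the enzymes that join JA to isoleucine, had 1.37, 6.19 and 6.10 FPKM in M7, against 13.4, 13.5 and 7.74 in L1 and 12.5 to 15.7 in L2. It fell against L2 by 1.64 on the log2 scale (adjusted p = 0.0124, limma), except with quantile normalization (adjusted p = 0.113). Against L1 it passed (adjusted p = 0.0432) in only 9 of 19 alternatives and not with the replicate block (adjusted p = 0.0632), nor without replicate 1 or 2 of L1 or any L2 library (adjusted p = 0.0702 to 0.127).

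The largest turnover unigene, the cytochrome P450 94C1-like TRINITY_DN14874_c0_g1, belongs to a group that oxidises jasmonoyl-isoleucine in Arabidopsis. It had 4.35, 17.5 and 19.6 FPKM in M7, against 461, 282 and 70.6 in L1 and 163 to 168 in L2. It fell by 4.05 on the log2 scale against L1 (standard error 0.73, adjusted p = 0.00209) and by 3.71 against L2 (adjusted p = 0.00247, limma), and passed in 19 of 19 alternatives for each. It is matched to *Quercus suber*, and 81.1% of the 2069 tested unigenes with that match were under 0.1 FPKM in every M7 library.

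Likeness of profile was measured as the root mean square difference of mean-centred log2(FPKM + 1) values over the 9 libraries, among 4458 or 4459 named unigenes with a stage mean over 30 FPKM. It is a description over libraries that share their stages and their depth. The *Jatropha*-matched AOS was most like 2 uncharacterized unigenes, TRINITY_DN17397_c0_g1 (0.12) and TRINITY_DN31543_c0_g1 (0.20). AOS 3 was most like an extensin-1 (TRINITY_DN12019_c1_g1, 0.13) and a mediator subunit 22a-like unigene (TRINITY_DN1588_c0_g3, 0.14). For the *Nelumbo*-matched AOC the closest were a kelch repeat protein (TRINITY_DN21809_c1_g1, 0.37) and a Pru ar 1-like allergen (TRINITY_DN1632_c0_g1, 0.61). That allergen had 352, 1808 and 642 FPKM in M7, so it shared with this AOC the low replicate 1 and high replicate 2.

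For the *Actinidia*-matched AOC the closest were an EIN3-binding F-box protein 2-like unigene (TRINITY_DN1694_c0_g1, 0.37), a brake on ethylene signalling in Arabidopsis, and an embryonic element binding factor (TRINITY_DN11262_c0_g2, 0.42). The F-box unigene had 195, 156 and 84.8 FPKM in M7, with replicate 3 lowest, as in this AOC, and its lowest L1 value was that of replicate 3. OPR3 was closest to a threonine synthase (TRINITY_DN26043_c0_g1) and a cinnamyl alcohol dehydrogenase 3 (TRINITY_DN16_c0_g2), both at 0.30. OPR11 was closest to an SRK2I-like protein kinase (TRINITY_DN3774_c0_g2) and an elongation factor 2-like unigene (TRINITY_DN1460_c0_g2), both at 0.16.

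On the same measure the 6 were 0.69 to 3.14 apart from each other. The closest pair was the *Jatropha*-matched AOS with OPR3 at 0.69, and both AOC unigenes were 1.34 apart. AOS 3 was farthest from the *Nelumbo*-matched AOC, at 3.14. The assembly cluster of OPR3 also held a peroxiredoxin-2B unigene, TRINITY_DN3604_c0_g2, at 0.48 from OPR3, with 1335, 595 and 555 FPKM in M7, against 257 to 324 in L1 and 250 to 255 in L2. It too was highest in replicate 1 of M7.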

How the data were processed

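RNA-Seq values of 9 root libraries were analysed, 3 per stage. Reads were quality checked (FastQC), trimmed (fastx_toolkit 0.0.14), assembled without a genome (Trinity) and quantified per unigene (RSEM) by the authors. The deposited values are called FPKM, as the study does for expression levels, although its methods also name TPM. They are not counts, so the reads behind each value are unknown, although the study reports clean reads per library. Count tests were therefore left out. The FPKM columns of stage means equal the means of the libraries and were not used.

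The 34925 unigenes that reached 1 FPKM in 3 or more libraries were fitted as log2(FPKM + 1) with limma 3.58.1 (R 4.3.3), with a mean per stage and a variance trend. P values were Benjamini-Hochberg adjusted over all tested unigenes, and calls had an adjusted p under 0.05. The test was checked on simulated data. The labels name biological replicates without saying which plants they came from, so p values measure the spread between these samples only, which may be partly technical. The 6 unigenes, the word list of the pathway and the markers were chosen with earlier results of these data known. Named were the 6, other tested AOS, AOC and OPR unigenes, the most expressed unigene of each other step, those with an adjusted p under 0.05, a log2 difference over 2 and a stage mean over 30 FPKM, and the 2 nearest profiles per unigene. Peroxiredoxin-2B, TRINITY_DN16576_c1_g1, TRINITY_DN1766_c2_g4, TRINITY_DN2101_c0_g2, TRINITY_DN1509_c0_g1 and TRINITY_DN26851_c0_g3 were added after their values were seen. The settings varied were the pseudocount (0.1, 5), filter, scaling, fit, replicate block and the libraries used. qRT-PCR, JA content and MeJA treatment were not analysed here.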

Additional observations from a re-analysis of the deposited data

How the results depend on the processing

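Of the counts over the pathway list, most stayed within 1.5 times. With at least 5 FPKM in 3 libraries, only 38 unigenes were tested, of which 5 rose and 9 fell in L2 against L1, 5 rose and 18 fell in M7 against L1, and 23 fell in M7 against L2. Quantile normalization gave 20 higher in M7 against L1, and 21 higher and 15 lower in M7 against L2. Median ratio rescaling gave 15 higher in M7 against L2, where the deposited scale gave 6. The cause was not tested for these scalings. Leaving out libraries in turn gave 4 to 10 higher in M7 against L2, the 10 without replicate 1 of M7, and 11 when replicate 3 of L1 was left out with it. Without unigenes matched to *Beta*, *Spinacia*, *Chenopodium* or *Quercus suber* (45 tested), 4 rose and 6 fell in L2 against L1, 13 fell in M7 against L1 and 19 fell in M7 against L2. The alternatives with both libraries left out, with a trimmed word list and without these matches were chosen after seeing the data. AOS 3 turned to 0.16 and 0.22 in M7 against L2 under median ratio rescaling and quantile normalization, OPR11 TRINITY_DN19804_c0_g3 to 0.87 under the last, and MFP-a to 0.34 under the first. With a replicate block, 7 rose and 33 fell in M7 against L1, 5 rose and 42 fell in M7 against L2, and 12 rose and 20 fell in L2 against L1. Deviations of same-numbered libraries correlated at -0.053 to 0.053, so the numbers were not taken as pairing plants, and not every library correlated best with its own number. The share of the AOC sum in L1 ranged between 42.5% and 56.9% with a library left out. Passing in no comparison refers to the reported setting, and each unigene so described passed under at least 1 alternative. FPKM carries no depth, so low values have no counting interval.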
